A study of Mus musculus with 23 samples.

Results

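The clustered protocadherins are 57 genes that lie in 3 neighbouring clusters on mouse chromosome 18. They were taken as every row of the deposited count table whose symbol starts with Pcdha, Pcdhb or Pcdhg followed by a digit or the letter a, b or c. The rule found 13 alpha, 22 beta and 22 gamma rows among 53607 gene rows. RNA was sequenced from 23 libraries of mouse embryonic stem cells of the Raslox/lox line, in 8 groups of 3 libraries each except 1 group of 2. Every group, the controls included, is homozygous null for H-Ras and N-Ras and carries Ubiq-CreERT2, a Cre recombinase that 4-hydroxytamoxifen (OHT) switches on. The RAS-deleted groups received OHT for 6 days, which deletes the floxed RAS gene that is left, and no group separates the drug itself from the loss of RAS. Each RAS state was grown with ERF wild type or ERF knockout, as labelled. ERF is an ETS-family transcriptional repressor that ERK signalling removes from the nucleus. Cells stayed in 2iL, a serum-free medium with MEK and GSK3 inhibitors and LIF that holds naive pluripotency, or spent 48 h in FA, a medium with 12 ng/ml FGF2 and 20 ng/ml Activin A that starts epiblast-like differentiation. Below, reference cells are ERF wild type with RAS present, and their FA group is the one with 2 libraries. The labels name neither clones nor separate cultures, so p-values measure only the spread between these samples, which may be technical.

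Clustered protocadherins are cell-surface adhesion proteins that bind to identical copies on a neighbouring cell. Each gene has its own variable exon with its own promoter. Variable exons of the alpha cluster are spliced to constant exons shared by that cluster, those of the gamma cluster to another shared set, and beta genes have none. A-type and B-type gamma genes and most alpha genes are known in neurons for a random choice of promoter, made by CTCF and cohesin loops to distant enhancers and limited by DNA methylation. C-type genes at the end of the alpha and gamma clusters are expressed more uniformly. The resulting combinations let a neuron tell its own branches from those of other neurons.

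In GRCm38 coordinates the alpha cluster spans 36930184 to 37187661, the beta cluster 37264938 to 37524479 and the gamma cluster 37661793 to 37841873, all on the forward strand. The gaps between them are 77.3 and 137.3 kb. Of the longest annotated transcript, a median of 53.5% of the bases in alpha genes and 45.05% in gamma genes is shared with other members. Reads from these constant exons were split among members by the authors' quantifier, so the estimate for a single alpha or gamma gene is less certain than its cluster's sum. Pcdha11 is the name of 2 loci in the annotation, and its row may hold both. Gm26672, at 0.521 to 3.63 CPM, is antisense to exons of Pcdhga10, Pcdhgb7, Pcdhga11, Pcdhgb8 and Pcdhga12. Whether the counting used strand is not given in the sources used here, so reads of these genes and of Gm26672 may not be separated.

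Libraries held 16221640 to 29874207 estimated counts, and the gamma cluster took 1227 to 3674 of them. A single other gene row, Gm26917, took 24.2% to 27.9% of each library in 2iL and 17.6% to 25.1% in FA. Summed markers of embryonic stem and epiblast cells stood at 1405 to 1840 CPM (counts scaled to library size) in all groups. Libraries labelled ERF knockout did not show less Erf RNA. In 2iL with RAS present Erf was at 116 ± 17.5 CPM (SD, n = 3) under the knockout label against 77.6 ± 7.66 (n = 3) under wild type, a log2 difference of 0.58 (edgeR quasi-likelihood test, Benjamini-Hochberg adjusted p = 0.00218). With RAS deleted the difference in 2iL was 0.79 (adjusted p = 6.89e-05). In FA the difference was -0.14 with RAS present (adjusted p = 0.614) and -0.20 with RAS deleted (adjusted p = 0.23). The group is therefore called ERF-KO-labelled throughout, and directions drawn from it rest on the label. Hras, at 188 to 743 counts, and Nras, at 95 to 1121, also had reads in every library. Nras was uneven within the ERF-KO-labelled 2iL groups, at 7.74 to 43.6 CPM with RAS present and 5.32 to 52.3 with RAS deleted. In the wild type 2iL groups it was at 31.7 to 40.3 and 38.1 to 41.2 CPM. In bulk RNA, fewer cells that express a gene and less RNA per cell cannot be told apart.

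The alpha and beta clusters were close to silent. Of 35 alpha and beta rows, 20 never exceeded 3 counts in any library, and Pcdhb9 and Pcdhb10 had 0 counts in all 23 libraries. A count of 0 allows up to 3 counts, or 0.0966 to 0.202 CPM depending on the library. The filter on low counts kept 1 alpha gene (Pcdhac2), 0 beta genes and all 22 gamma genes, so tests below cover 23 of the 57 members.

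Alpha genes other than Pcdhac2 were nearly absent in 2iL and detectable in FA. Their 12 rows summed to 2, 1 and 2 counts in the 2iL libraries of reference cells and to 22 and 9 counts in FA. RAS-deleted cells had 6, 5 and 7 counts in 2iL and 20, 16 and 11 in FA. ERF-KO-labelled cells had 3, 0 and 2 counts in 2iL and 31, 18 and 39 in FA. With RAS deleted under the ERF knockout label, the sums were 0, 0 and 0 counts in 2iL and 39, 23 and 25 in FA. Scaled to library size, the sum was 0 to 0.339 CPM over the 12 libraries in 2iL and 0.395 to 1.55 CPM over the 11 in FA, so no FA library overlapped any 2iL library. Pcdha11, Pcdha6 and Pcdha7, the rows with most counts, totalled 55, 48 and 45 counts over all libraries, of which 51, 45 and 42 came from FA. Pcdhac1, the first C-type gene of the cluster, had 0 counts in 2iL and 18 in FA. When all 38265 rows with a count were fitted without the filter, Pcdha7 was the alpha gene and Pcdhb2 the beta gene called between media in reference cells, with 5 gamma genes, beside 14.4% of rows. Under the ERF knockout label with RAS present, 4 alpha genes (Pcdha6, Pcdha7, Pcdha11 and Pcdhac1) and 3 gamma genes were called higher in FA, beside 11.8% of rows. With RAS deleted under that label, 5 alpha genes (Pcdha6, Pcdha7, Pcdha11, Pcdha12 and Pcdhac2), Pcdhb2 and 13 gamma genes were called, all higher in FA, beside 14.6% of rows. In RAS-deleted cells Pcdhac2 was the alpha gene called, with 2 gamma genes, Pcdhgc4 higher and Pcdhgb8 lower in FA, beside 9.98% of rows. For the ERF label in FA, Pcdha6 was called higher with RAS present, beside 2.3% of rows, and Pcdha1 was called lower with RAS deleted, beside 10% of rows. Both calls rest on few reads and on rows that the filter removes. Pcdha6 had at most 12 counts in a library. Pcdha1 had 18 counts in all, from 5 of the 23 libraries, with at most 8 in a library. The sums carry no test.

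The beta cluster was as low, and its FA and 2iL libraries were less clearly apart. Its 22 rows summed to 6, 3 and 6 counts in 2iL and 28 and 9 in FA in reference cells. In RAS-deleted cells the sums were 11, 6 and 19 counts in 2iL and 14, 12 and 22 in FA, which overlap. ERF-KO-labelled cells had 7, 8 and 9 counts in 2iL and 33, 23 and 38 in FA, without overlap. With RAS deleted under that label the beta sums were 4, 8 and 6 counts in 2iL and 32, 27 and 23 in FA. Pcdhb22, the beta row with most reads, had 1 to 10 counts per library and 116 in all. Pcdhb2, Pcdhb3 and Pcdhb5 followed with 49, 29 and 28 counts over all libraries, of which 43, 25 and 21 came from FA. The plot of summed levels by library shows both silent clusters above and the 2 kinds of gamma gene below.

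**Figure D1:**
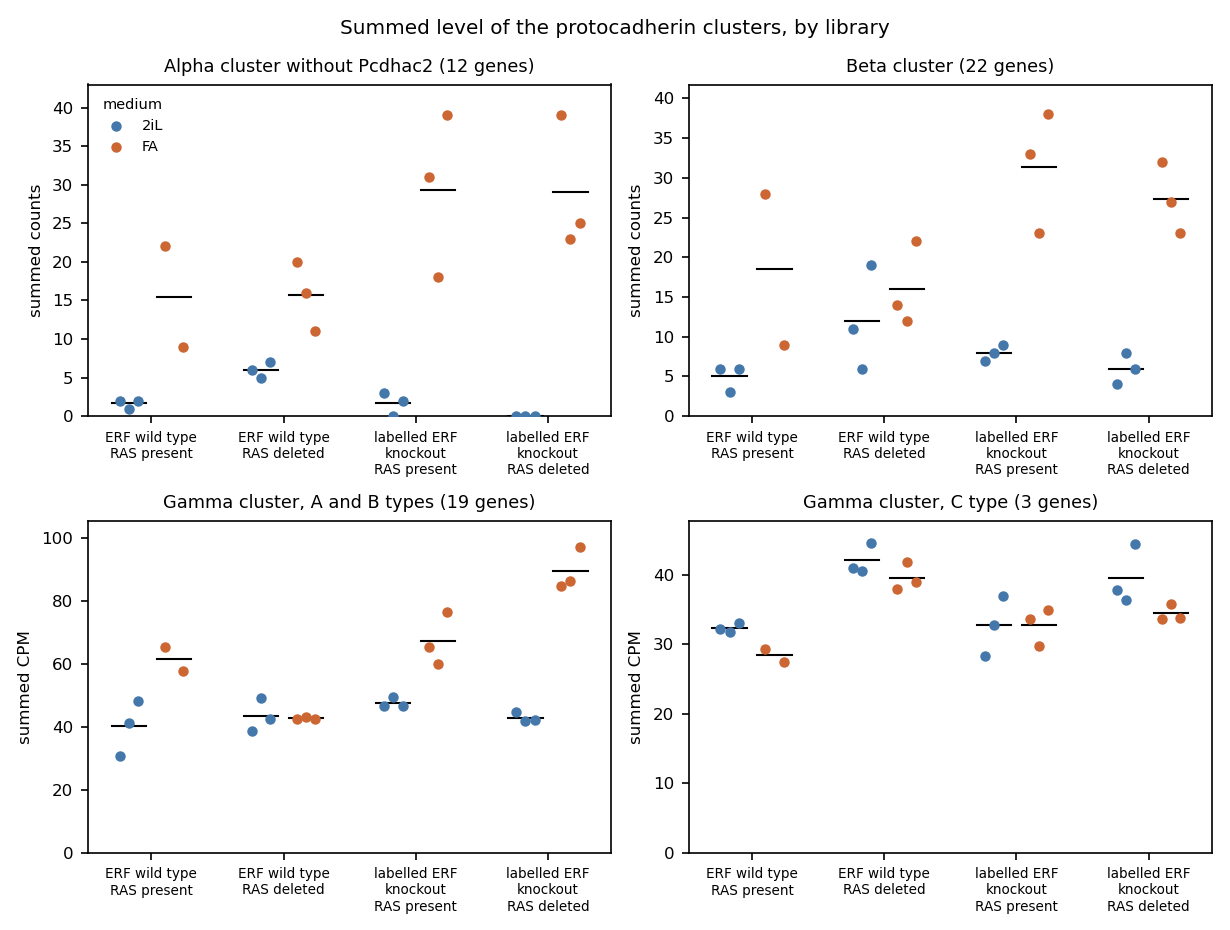
Each point is 1 library and each line a group mean; the y axis gives summed counts for the alpha (without Pcdhac2) and beta clusters and summed CPM for A-type with B-type and for C-type gamma genes, in 2iL and FA for each line. Alpha sums are 0 to 7 counts in 2iL and 9 to 39 in FA, and the A and B types reach 84.6 to 96.9 CPM in FA in RAS-deleted cells labelled ERF knockout.

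All 22 gamma genes were expressed, and Pcdhgc3 led them. This C-type gene, known to promote dendrite branching and to bind Axin1, had a median level of 6.17 TPM (a level scaled to transcript length and library; range 4.50 to 8.84 TPM over 23 libraries). The next highest were the A-type genes Pcdhga1 at a median of 1.30 TPM and Pcdhga8 at 1.03 TPM, and the lowest was Pcdhga6 at 0.145 TPM. In 2iL, Pcdhgc3 made up a mean of 38.8% of the gamma CPM in reference cells, 45.2% in RAS-deleted cells, 35.3% in ERF-KO-labelled cells and 42.2% in RAS-deleted, ERF-KO-labelled cells. In FA the corresponding shares were 24.2%, 34.0%, 27.8% and 23.1%. The share was lower in FA than in 2iL in each of the 4 lines. The whole cluster's mean was 72.4 ± 9.11 CPM in 2iL and 89.7 ± 6.59 in FA in reference cells (SD, n = 3 and 2), 85.4 ± 5.33 and 82.2 ± 2.45 CPM in RAS-deleted cells (n = 3 each, overlapping), 80.2 ± 4.67 and 99.9 ± 10.9 CPM in ERF-KO-labelled cells (n = 3 each), and 82.2 ± 4.20 and 124 ± 6.39 CPM in RAS-deleted, ERF-KO-labelled cells (n = 3 each).

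In reference cells the move from 2iL to FA came with more RNA from 4 gamma genes. Summed A-type and B-type genes (19 genes) stood at 30.8, 41.3 and 48.1 CPM in 2iL and at 65.1 and 57.6 CPM in FA. Group means were 40.1 ± 8.70 CPM (SD, n = 3) and 61.4 ± 5.30 CPM (SD, n = 2), and the libraries did not overlap. A gene is named called where its adjusted p is under 0.05 and its change at least 2-fold. Of 23 members tested, 4 were called, all higher in FA, beside 24% of all 20372 genes (13.2% called higher). The members' median log2 fold change was 0.47, against 0.03 for all genes tested, and 17 members were above 0. The share of members called was below that of all genes called in either direction and above that called higher. Primitive endoderm (6 genes, 13.9 to 21.5 CPM in 2iL and 96.6 to 164 in FA), mesoderm (6 genes, 6.25 to 9.52 and 22.7 to 28.1), fibroblast (8 genes, 5.65 to 7.28 and 14.8 to 29.4) and neuron markers (10 genes, 46.1 to 51.7 and 59.0 to 81.7) were higher in FA as sums. Trophoblast (6 genes, 113 to 131 and 22.95 to 26.7) and glia markers (5 genes, 28.3 to 30.6 and 9.28 to 9.35) were lower, and neural progenitor sums (8 genes) overlapped. Marker statements here and below are about sums, in which single genes may go the other way. Pdgfra is in both the primitive endoderm and the fibroblast list, so these sums are not separate. Of the fibroblast genes, Lum and Postn had 0 counts in all reference libraries, and Col3a1 and Dcn had 0 in 2iL. The part of these cell types was not tested.

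Pcdhga8, an A-type gene from the middle of the cluster, was at 3.05, 5.59 and 4.83 CPM in 2iL and at 9.43 and 12.1 CPM in FA. Both FA libraries lay above all 3 2iL libraries, and the gene rose by 1.28 on the log2 scale (SE 0.22, adjusted p = 4.52e-05). Pcdhga1, the first gene of the cluster, was at 2.77, 2.86 and 3.86 CPM in 2iL and at 6.76 and 6.96 CPM in FA. It rose by 1.12 (SE 0.24, adjusted p = 0.000474), again without overlap. Pcdhga2 and Pcdhgb6 also rose, by 1.01 (adjusted p = 0.0014) and 1.07 (adjusted p = 0.0274). Pcdhga2 lay under 2-fold without 2iL replicate 1 (0.94) or 2 (0.93) or FA replicate 1 (0.79). Pcdhgb6 lost its call without 2iL replicate 1 (0.67, adjusted p = 0.154), FA replicate 1 (1.20, adjusted p = 0.0574) or FA replicate 2 (0.92, adjusted p = 0.135), and in a fit of these 2 groups alone (adjusted p = 0.0748). Pcdhgb5, a B-type gene beside Pcdhga8, was at 2.24, 3.39 and 5.53 CPM in 2iL and 7.16 and 7.53 in FA. Its log2 fold change of 0.99 (adjusted p = 0.0047) lay just under the 2-fold limit. The call count fell from 4 to 2 when replicate 1 of the reference 2iL libraries, the lowest in summed A and B types, was left out.

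Without RAS, with ERF wild type, the A and B types stood at similar summed levels in both media. The sum was 38.5, 49.1 and 42.4 CPM in 2iL and 42.4, 43.1 and 42.4 CPM in FA, and the FA libraries lay inside the 2iL range. Pcdhga8 stood at 3.66, 4.16 and 3.34 CPM in 2iL and at 3.29, 4.30 and 3.74 CPM in FA, a log2 fold change of 0.02 (SE 0.22, adjusted p = 0.945). The members' median was 0.01, equal to that of all genes. Only Pcdhac2 and Pcdhgc4, both C-type, were called, both higher, beside 16.5% of all genes (9.96% called higher), and both are described with the C-type genes below. Leaving out replicate 2 or 3 in 2iL, or replicate 1 in FA, lowered this count of 2 to 1. Neuron markers were higher in these FA libraries (97.1 to 123 against 40.3 to 45.7 CPM), and glia (8.48 to 10.47 against 26.2 to 30.1 CPM) and trophoblast markers (62.5 to 72.3 against 108 to 121 CPM) were lower as sums. S100b, a glia marker, had 0 counts in these 2iL libraries but some reads in FA. The other 4 sums of markers of other cell types overlapped. The part of these cell types was not tested.

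In ERF-KO-labelled cells with RAS present, 3 gamma genes at the start of the cluster were higher in FA. A and B types summed to 46.5, 49.4 and 46.5 CPM in 2iL and to 65.2, 59.9 and 76.5 CPM in FA. The 9 genes up to Pcdhga7 made up most of that difference, at 16.8 ± 0.915 and 32.3 ± 2.61 CPM (SD, n = 3 each). The 10 from Pcdhgb4 on overlapped between media, at 30.7 ± 2.30 and 35.0 ± 6.77 CPM. Of the 19 genes 4 had a log2 fold change below 0, the lowest being Pcdhgb8 at -0.87 (adjusted p = 0.14). Of 23 members 3 were called, all higher, beside 19.7% of all genes (12.3% called higher). The share of members called was below that of all genes called in either direction and near that called higher. Primitive endoderm (96.6 to 99.2 against 27.8 to 68.4 CPM), neural progenitor (60.2 to 76.3 against 33.4 to 39.7) and mesoderm markers (9.86 to 12.9 against 7.73 to 9.66) were higher in FA. Neuron (53.2 to 56.5 against 114 to 124 CPM), glia (11.7 to 13.5 against 34.0 to 35.9) and trophoblast markers (29.4 to 38.9 against 57.0 to 60.6) were lower as sums, and fibroblast sums overlapped. Snap25, a neuron marker, had 0 counts in these 2iL libraries but some reads in FA. The part of these cell types was not tested. The members' median was 0.44 against 0.02 for all genes. Pcdhga1 was at 5.09, 3.41 and 2.00 CPM in 2iL and at 10.2, 10.6 and 8.57 CPM in FA, and rose by 1.47 (SE 0.22, adjusted p = 6.4e-06). Pcdhgb1, the first B-type gene, was at 1.11, 1.19 and 1.47 CPM in 2iL and at 2.77, 1.91 and 3.31 CPM in FA, and rose by 1.09 (adjusted p = 0.00153; 0.90, under 2-fold, with effective length as an offset). Pcdhga3 rose by 1.02 (adjusted p = 0.00138), and lay under 2-fold without 2iL replicate 3 (0.85) or FA replicate 2 (0.89) or 3 (0.95). Pcdhga8, at 5.67, 6.82 and 5.57 CPM in 2iL and 8.07, 6.12 and 10.0 CPM in FA, overlapped between the media (adjusted p = 0.0878). Without replicate 3 of the FA libraries, whose A and B sum was highest, the count of 3 was 1, and the log2 fold change of Pcdhgb1 was 0.89 (adjusted p = 0.0146). Without replicate 1 in 2iL that of Pcdhgb1 was 0.99 (adjusted p = 0.0115).

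The broadest difference was in RAS-deleted, ERF-KO-labelled cells, where 14 of 23 members were called, all higher in FA, beside 24.9% of all genes (14.5% called higher). A and B types summed to 44.6, 41.7 and 42.0 CPM in 2iL and to 84.6, 86.2 and 96.9 CPM in FA, a ratio of means of 2.09. The members' median log2 fold change was 1.09, against 0.03 over all genes, and 21 of 23 were above 0. The called genes were Pcdhac2 and 13 of the 15 gamma genes from Pcdhga1 to Pcdhga10. The exceptions in that stretch, Pcdhga4 and Pcdhgb2, had log2 fold changes of 0.63 (adjusted p = 0.0594) and 0.61 (adjusted p = 0.0429).

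Pcdhgb1 rose most in these cells, from 0.854, 1.06 and 1.01 CPM in 2iL to 3.09, 3.47 and 3.85 CPM in FA, a log2 fold change of 1.82 (SE 0.27, adjusted p = 5.07e-06). Pcdhgb5 was at 1.99, 3.14 and 3.03 CPM in 2iL and 7.37, 8.37 and 10.4 CPM in FA, and rose by 1.68 (adjusted p = 1.09e-05). Neither gene's FA libraries overlapped those in 2iL. Pcdhga8 was at 4.95, 4.03 and 5.73 CPM in 2iL and 11.6, 11.3 and 14.8 CPM in FA, and rose by 1.36 (adjusted p = 5.63e-06). Pcdhga1 was at 3.81, 4.03 and 3.50 CPM in 2iL and 7.89, 8.04 and 7.87 CPM in FA, and rose by 1.06 (adjusted p = 0.000252; 0.88, under 2-fold, with effective length as an offset). Pcdhga6, with 3 to 13 counts per 2iL library, rose by 1.09 and was the weakest call (adjusted p = 0.0439; 0.0628 by DESeq2 and 0.0521 in a fit of these 2 groups alone). It was not called in 4 of the 6 fits that each left out 1 library: without replicate 2 or 3 in 2iL, adjusted p = 0.148 and 0.179, and without replicate 1 or 3 in FA, 0.135 and 0.148. Pcdhga7 lay under 2-fold without 2iL replicate 3 (0.93) or FA replicate 1 (0.91) or 3 (0.83), and Pcdhga10 without 2iL replicate 3 (0.95). Summed neural progenitor markers (8 genes, among them Sox1, Pax6 and Nes) were also highest in this FA group, at 119 to 128 CPM against 33.4 to 80.4 CPM in the other 7 groups. Mesoderm markers (6 genes) were also higher in these FA libraries than in their 2iL libraries, at 16.3 to 18.8 against 8.96 to 10.6 CPM. As sums, neuron markers (10 genes) were lower, at 97.5 to 109 against 117 to 132 CPM, as were glia markers (5 genes, 8.18 to 10.8 against 35.1 to 40.3 CPM) and trophoblast markers (6 genes, 22.2 to 26.9 against 62.5 to 64.6 CPM). Of the neuron markers Dcx and Snap25, and of the glia markers S100b, had 0 counts in these 2iL libraries but some reads in FA. Fibroblast and primitive endoderm sums overlapped. The part of these cell types in the result was not tested.

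**Figure D2:**
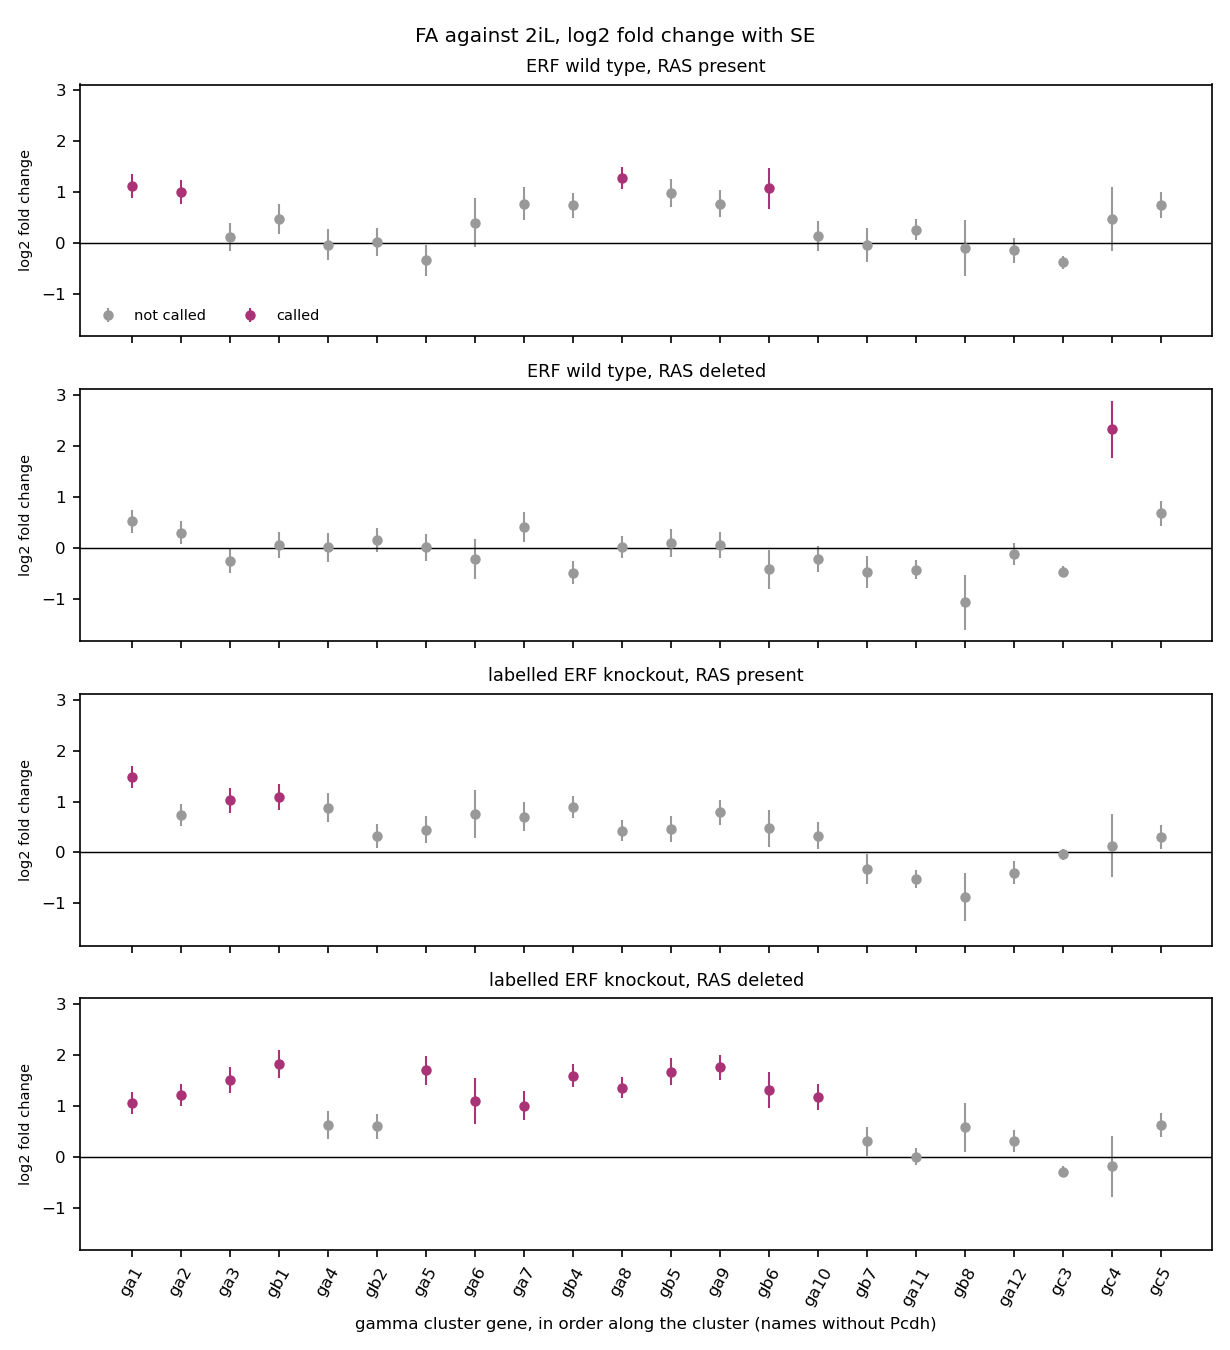
The log2 fold change of FA against 2iL with its SE is plotted for each of the 22 gamma genes in order along the cluster, 1 panel per line, with called genes in purple. Called genes are 4 in reference cells, only Pcdhgc4 in RAS-deleted cells, 3 at the start of the cluster under the ERF knockout label, and 13 from Pcdhga1 to Pcdhga10 in RAS-deleted, ERF-KO-labelled cells.

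The C-type genes had log2 fold changes of both signs between media, and no test set them against the A and B types. Pcdhgc3 was at 26.8, 27.3 and 29.7 CPM in 2iL and at 20.7 and 22.5 CPM in FA in reference cells, with both FA libraries lower. Its log2 fold change was -0.37 there (adjusted p = 0.0179), -0.47 in RAS-deleted cells (adjusted p = 0.00155), -0.29 in RAS-deleted, ERF-KO-labelled cells (adjusted p = 0.0332) and -0.04 in ERF-KO-labelled cells with RAS present (adjusted p = 0.808). All of these are smaller than 2-fold, and Pcdhgc3 was called in none of the 12 comparisons. In mean TPM it was lower in FA in reference cells (4.66 against 5.98), in RAS-deleted cells (6.57 against 8.38) and in ERF-KO-labelled cells with RAS present (5.57 against 5.81), but not in RAS-deleted, ERF-KO-labelled cells (6.51 against 6.31). The sum of the 3 gamma C-type genes turned with the unit between media in 3 lines: it went from 32.3 to 28.4 CPM but from 6.95 to 7.22 TPM in reference cells, from 42.0 to 39.6 CPM but from 9.13 to 11.4 TPM in RAS-deleted cells, and from 39.5 to 34.4 CPM but from 7.13 to 8.28 TPM in RAS-deleted, ERF-KO-labelled cells. Pcdhgc5, known at synapses, stood at 1.45 to 4.81 CPM over all libraries. Its log2 fold change in FA was 0.74 in reference cells (adjusted p = 0.0182), 0.68 in RAS-deleted cells (adjusted p = 0.0296) and 0.63 in RAS-deleted, ERF-KO-labelled cells (adjusted p = 0.0263), also under 2-fold, and 0.30 in ERF-KO-labelled cells with RAS present (adjusted p = 0.307).

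Pcdhgc4, a gene known for its need in the survival of neurons, varied widely between replicates in FA. In the FA libraries of RAS-deleted cells with ERF wild type it was at 2.85, 11.6 and 12.0 CPM (65, 286 and 333 counts), and in their 2iL libraries at 1.18, 1.52 and 2.52 CPM. It rose by 2.33 (SE 0.56, adjusted p = 0.00256) in that comparison. All other libraries lay at 0.695 to 4.35 CPM, the 2 reference FA libraries at 4.35 and 0.900 CPM. The authors' quantifier gave the gene an effective length, a mean over its annotated transcripts weighted by their estimated level. It was 2185 and 2264 bases in the 2 high libraries and 2456 to 4851 bases elsewhere. Lengths of 2456, 2498 and 2670 bases belonged to FA libraries at 1.88, 4.35 and 2.85 CPM, so a short length was not confined to the high ones. The 2 high libraries also had the lowest shares of Gm26917, 19.03% and 17.6%, and the highest TMM scaling factors, 1.10 and 1.09. The rise was 3.08 with effective length as an offset (adjusted p = 0.00103) and 2.34 with DESeq2's size factors, called in both. The part of Gm26917 was not tested.

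Pcdhac2, the C-type alpha gene known for axon tiling, had 3 to 47 counts per library. In RAS-deleted cells it was at 0.591, 0.355 and 0.387 CPM in 2iL and at 2.06, 0.892 and 0.503 CPM in FA, where the lowest FA library lay inside the 2iL range. It rose by 1.35 (SE 0.44, adjusted p = 0.016), which rested on replicate 1 of the FA libraries: without it the log2 fold change was 0.64 (adjusted p = 0.223). Without replicate 2 or 3 in 2iL it was 1.21 (adjusted p = 0.0633) and 1.26 (adjusted p = 0.0587), and in a fit of these 2 groups alone 1.36 (adjusted p = 0.0825). In RAS-deleted, ERF-KO-labelled cells it was at 0.740, 0.336 and 0.202 CPM in 2iL and 1.38, 1.31 and 1.04 CPM in FA, without overlap, and rose by 1.51 (SE 0.45, adjusted p = 0.00614). In reference cells and in ERF-KO-labelled cells with RAS present its log2 fold changes of 0.54 and 0.44 did not pass (adjusted p = 0.393 and 0.406).

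**Figure D3:**
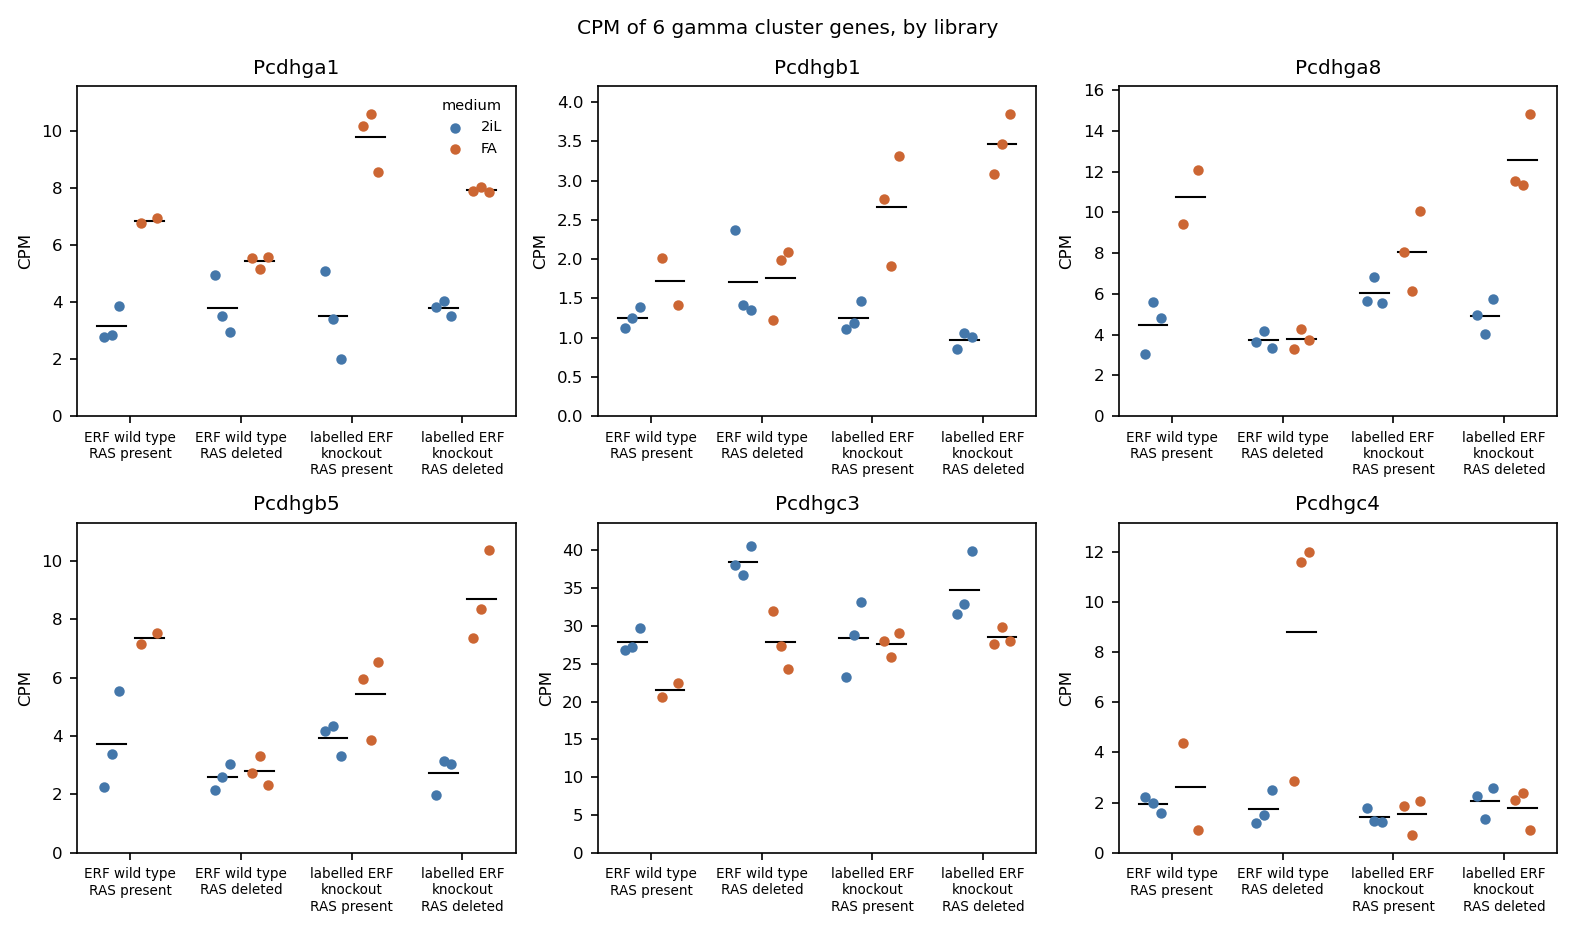
CPM of 6 gamma genes is plotted for every library (points) with group means (lines), by line and medium, on linear axes that start at 0. Pcdhga8 and Pcdhgb5 are high in FA in reference cells and in RAS-deleted, ERF-KO-labelled cells; Pcdhgc3 is not higher in FA on this CPM scale, and 2 FA libraries of RAS-deleted cells set Pcdhgc4 apart.

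Few members differed between genotypes in 2iL. Deleting RAS gave 0 calls of 23 with ERF wild type (1.2% of all genes called) and 0 under the ERF knockout label (0.211% called). At an unadjusted p under 0.05 these comparisons held 4 and 2 members, and DESeq2 called 0 in both. With ERF wild type, Pcdhgc3 was higher without RAS, at 38.1, 36.8 and 40.6 CPM, by 0.46 on the log2 scale (adjusted p = 0.0166), which is under 2-fold. The ERF label gave 0 calls with RAS present (9.72% of all genes called, 4 members at an unadjusted p under 0.05, 0 by DESeq2). Leaving out replicate 3 of the reference 2iL libraries made that 1. With RAS deleted it gave 1 call, beside 13% of all genes (7.15% lower): Pcdhga6 was at 1.02, 1.01 and 1.06 CPM under wild type and at 0.740, 0.336 and 0.202 CPM under the knockout label. It fell by 1.24 (SE 0.46, adjusted p = 0.0353) and lost the call without wild type replicate 1, 2 or 3 (adjusted p = 0.0662, 0.0646 and 0.0746) or knockout-labelled replicate 2 or 3 (0.125 and 0.148). Without wild type replicate 1 or 2, or knockout-labelled replicate 3, 0 members were called. Pcdhga11 was higher under the knockout label in both RAS states, by 0.82 (adjusted p = 0.00132) and 0.87 (adjusted p = 0.000425), without reaching 2-fold.

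In FA, 3 close gamma genes were lower without RAS when ERF was wild type. Of 23 members 4 were called, 3 lower and 1 higher, beside 17.3% of all genes (8.93% higher and 8.33% lower), about the same share. The members' median log2 fold change was -0.23. Pcdhga8 was at 9.43 and 12.1 CPM with RAS and at 3.29, 4.30 and 3.74 CPM without, and fell by 1.50 (SE 0.22, adjusted p = 8.58e-06). Pcdhgb5, next to it, was at 7.16 and 7.53 CPM with RAS and at 2.72, 3.32 and 2.34 CPM without, and fell by 1.40 (adjusted p = 0.000299). Pcdhgb6, 2 genes further on, fell by 1.16 (adjusted p = 0.0197), a call lost without RAS-deleted FA replicate 2 (-0.90, adjusted p = 0.0942) or reference FA replicate 2 (-1.01, adjusted p = 0.125). None of these 3, which were picked as called genes, overlapped between the groups, so this adds no test. Pcdhgb4, just before them, was at 3.02 and 3.27 CPM with RAS and at 1.49, 1.42 and 1.94 CPM without, a log2 fold change of -0.95 (adjusted p = 0.00321) that is just under 2-fold.

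Pcdhgc4 was the member higher without RAS, by 1.71 (SE 0.61, adjusted p = 0.0309). It was not called without RAS-deleted FA replicate 2 (1.46, adjusted p = 0.0883) or 3 (1.42, adjusted p = 0.0921), or without reference FA replicate 2 (1.03, adjusted p = 0.258), nor in a fit of these 2 groups alone (1.72, adjusted p = 0.243). Without RAS-deleted FA replicate 2 the count of 4 was 2. Primitive endoderm markers moved with RAS in these libraries: their 6 genes summed to 96.6 to 164 CPM in reference FA libraries and to 14.7 to 18.6 CPM without RAS. Mesoderm markers (22.7 to 28.1 against 7.49 to 12.7 CPM) and fibroblast markers (14.8 to 29.4 against 5.15 to 6.51 CPM) were also lower without RAS. The fibroblast and primitive endoderm lists share Pdgfra, and the fibroblast genes Lum and Postn had 0 counts in both groups. Trophoblast markers (22.95 to 26.7 against 62.5 to 72.3 CPM) and neuron markers (59.0 to 81.7 against 97.1 to 123 CPM) were higher, and neural progenitor and glia sums overlapped. The part of these cell types in the result was not tested.

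Under the ERF knockout label, losing RAS in FA gave values in the other direction. Of 23 members 21 had a log2 fold change above 0, with a median of 0.46 against 0 for all genes. The test called 0 of them, beside 6.88% of all genes. At an unadjusted p under 0.05 there were 9 members, DESeq2 called 0, and 5 passed the adjusted p under 2-fold: Pcdhga10 (0.87), Pcdhga11 (0.81), Pcdhga12 (0.74), Pcdhgb5 (0.67) and Pcdhga8 (0.64). Pcdhga8 was at 8.07, 6.12 and 10.0 CPM with RAS and 11.6, 11.3 and 14.8 CPM without, so its libraries did not overlap (adjusted p = 0.0177). Leaving out replicate 3 of the FA libraries with RAS made the count 1. Neural progenitor (119 to 128 against 60.2 to 76.3 CPM), neuron (97.5 to 109 against 53.2 to 56.5) and mesoderm markers (16.3 to 18.8 against 9.86 to 12.9) were higher without RAS. Primitive endoderm (22.3 to 32.6 against 96.6 to 99.2 CPM), trophoblast (22.2 to 26.9 against 29.4 to 38.9) and glia markers (8.18 to 10.8 against 11.7 to 13.5) were lower, and fibroblast sums overlapped. What these cell types add was not tested.

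With RAS deleted, the cells labelled ERF knockout had more gamma RNA in FA than the wild type. A and B types summed to 84.6, 86.2 and 96.9 CPM against 42.4, 43.1 and 42.4 CPM, a ratio of means of 2.09. Of 23 members 9 were called, 8 higher and 1 lower, beside 16.6% of all genes (8.13% higher and 8.48% lower). Neural progenitor (119 to 128 against 43.8 to 72.0 CPM), primitive endoderm (22.3 to 32.6 against 14.7 to 18.6), fibroblast (10.9 to 15.3 against 5.15 to 6.51) and mesoderm markers (16.3 to 18.8 against 7.49 to 12.7) were also higher under the knockout label. Of these, the fibroblast and primitive endoderm lists share Pdgfra, and the fibroblast genes Lum and Postn had 0 counts in both groups. Trophoblast markers were lower (22.2 to 26.9 against 62.5 to 72.3 CPM), and neuron and glia sums overlapped. What these cell types add was not tested. The members' median was 0.82 against 0.01, and 22 of 23 were above 0. A further 9 members passed the adjusted p under 2-fold, 18 in all. Pcdhgb4 was at 5.47, 5.10 and 5.76 CPM under the knockout label and at 1.49, 1.42 and 1.94 CPM under wild type, and was higher by 1.74 (SE 0.22, adjusted p = 8.46e-07). Pcdhga8, at 11.6, 11.3 and 14.8 CPM against 3.29, 4.30 and 3.74 CPM, was higher by 1.73 (SE 0.20, adjusted p = 3.3e-07). Pcdhgb5 was at 7.37, 8.37 and 10.4 CPM against 2.72, 3.32 and 2.34 CPM, higher by 1.64 (adjusted p = 1.59e-05). In each of these genes the groups were apart by more than the spread within them. The other called genes were Pcdhgb6 (1.65), Pcdhgb8 (1.58), Pcdhga9 (1.47), Pcdhga11 (1.30) and Pcdhgb7 (1.21), of which Pcdhgb8 lost its call without knockout-labelled replicate 1 or wild type replicate 2 (adjusted p = 0.0567 in both) and is annotated as a polymorphic pseudogene and 3 overlap the antisense Gm26672. Pcdhgc4 was lower, with a log2 fold change of -2.29 (SE 0.54, adjusted p = 0.00228), in a comparison whose wild type libraries include its 2 high ones. It lost its call in a fit of these groups alone with the replicate number as a block (-2.13, adjusted p = 0.0731). This comparison and the RAS comparison with ERF wild type share the RAS-deleted wild type FA libraries.

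The same label with RAS present gave 0 calls in FA, beside 2.36% of all genes. The members' median was 0.30, 5 members had an unadjusted p under 0.05 and DESeq2 called 0. The closest was Pcdhga5, with a log2 fold change of 0.89 (SE 0.30, adjusted p = 0.0636). A and B types summed to 65.2, 59.9 and 76.5 CPM under the knockout label and to 65.1 and 57.6 CPM in reference cells, which overlap.

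**Figure D4:**
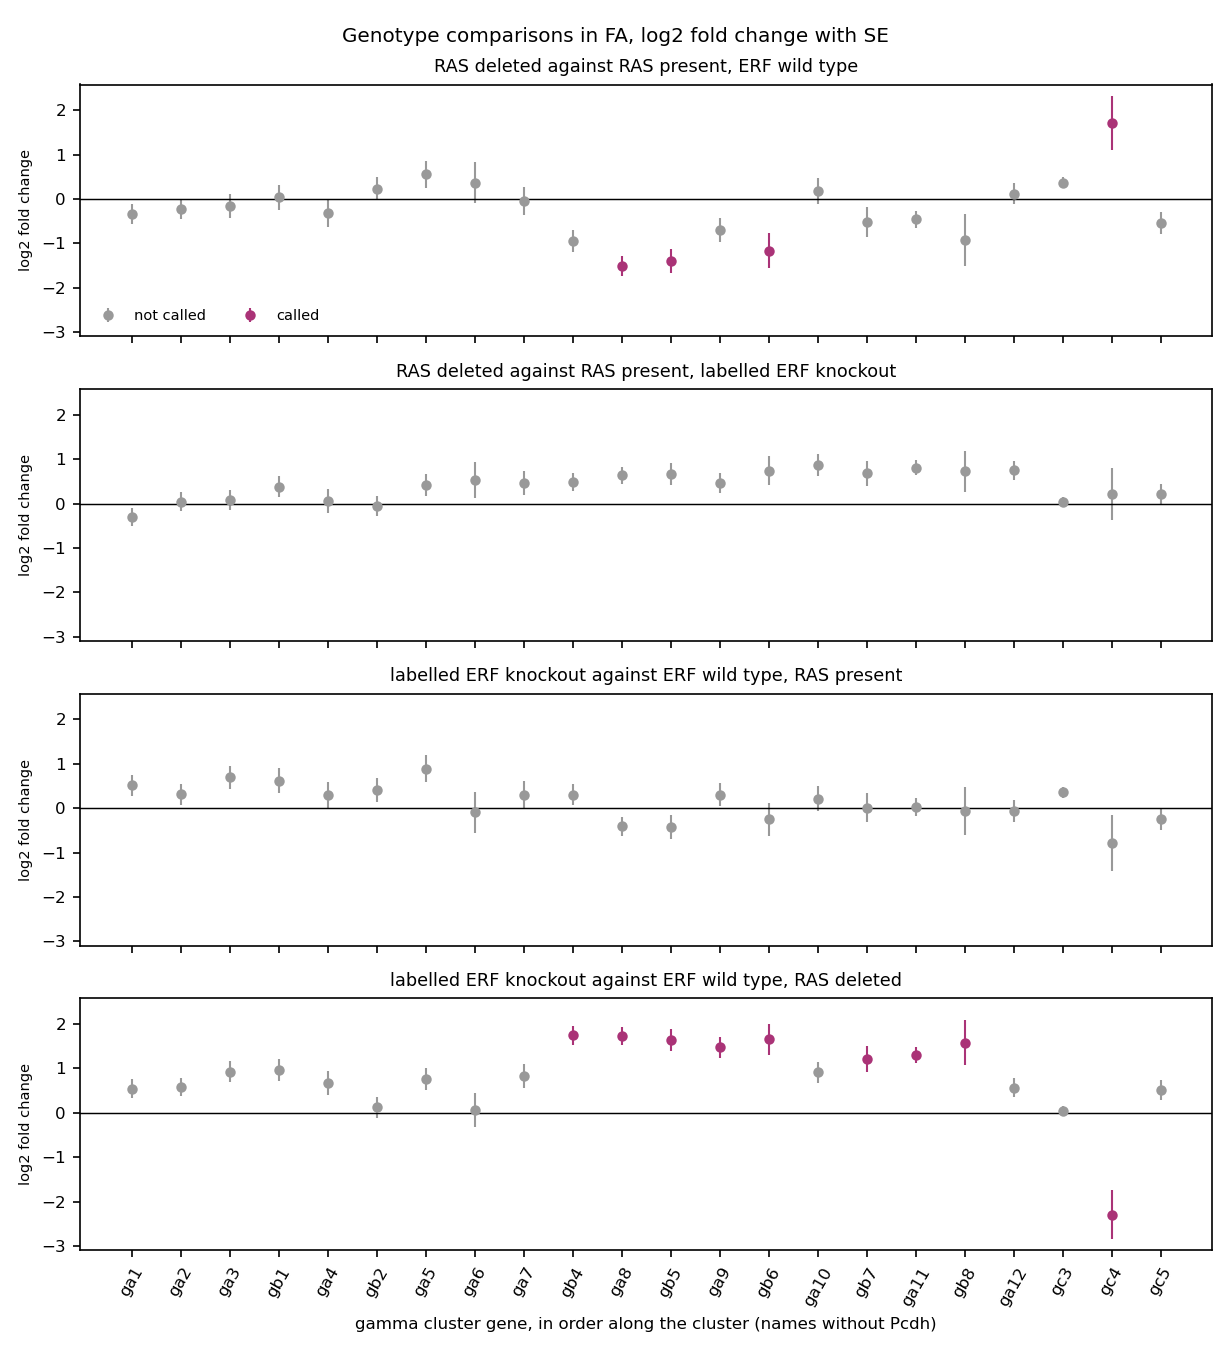
The log2 fold change with its SE in the 4 genotype comparisons in FA is plotted for each gamma gene in order along the cluster, with called genes in purple. Pcdhga8, Pcdhgb5 and Pcdhgb6 lie below -1 for RAS deletion with ERF wild type, and 8 genes from Pcdhgb4 to Pcdhgb8 lie above 1 for the ERF knockout label with RAS deleted.

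The A and B genes were also counted in 2 stretches along the cluster. The split, between Pcdhga7 and Pcdhgb4, was chosen after the values were seen, so it is a description with no test. For RAS deletion in FA with ERF wild type, 0 of the 9 A and B genes up to Pcdhga7 and 3 of the 10 from Pcdhgb4 on were called, with median log2 fold changes of -0.05 and -0.81. The ERF label in RAS-deleted FA cells gave 0 and 8 calls and medians of 0.67 and 1.52. Under the knockout label RAS deletion in FA gave 0 and 0 calls with medians of 0.08 and 0.70, and the ERF label in FA with RAS present 0 and 0 with 0.41 and -0.03. For FA against 2iL the stretches were alike in reference cells, with 2 calls each and medians of 0.40 and 0.51. In RAS-deleted cells neither had a call, with medians of 0.06 and -0.33. Under the ERF knockout label with RAS present the counts were 3 and 0 and the medians 0.76 and 0.38, and with RAS deleted 7 and 6 with 1.09 and 1.25. Summed levels of the first stretch in FA were 23.2 ± 3.30 CPM (SD, n = 2) in reference cells, 21.5 ± 1.68 (n = 3) in RAS-deleted cells, 32.3 ± 2.61 (n = 3) in ERF-KO-labelled cells and 33.7 ± 1.41 (n = 3) in RAS-deleted, ERF-KO-labelled cells. In 2iL they were 15.7 ± 2.64, 18.9 ± 1.57, 16.8 ± 0.915 and 14.8 ± 1.17 CPM (n = 3 each). Those of the second stretch in FA were 38.2 ± 2.00 CPM (SD, n = 2) in reference cells, 21.1 ± 1.63 (n = 3) in RAS-deleted cells, 35.0 ± 6.77 (n = 3) in ERF-KO-labelled cells and 55.6 ± 5.29 (n = 3) in RAS-deleted, ERF-KO-labelled cells. In 2iL they were 24.3 ± 6.46, 24.5 ± 4.19, 30.7 ± 2.30 and 28.0 ± 0.978 CPM (n = 3 each).

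Interaction terms tested whether one effect depended on another factor. The medium effect differed by RAS state with ERF wild type in 3 members, all lower without RAS, beside 11.9% of all genes (5.3% negative). Pcdhga8 showed it with a log2 difference of -1.25 (SE 0.31, adjusted p = 0.00454), as did Pcdhgb4 (-1.23, adjusted p = 0.00957) and Pcdhgb6 (-1.50, adjusted p = 0.0483). In a fit without the filter on low counts, Pcdhgc4 was also called, in the other direction. The call of Pcdhgb6 was lost without reference 2iL replicate 1, either reference FA library, or RAS-deleted replicate 2 or 3 in either medium (adjusted p from 0.0573 to 0.166), and with DESeq2 size factors (0.0511), effective length as an offset (0.0669) or these 4 groups alone (0.125). Without replicate 1 of the reference 2iL libraries 1 of these calls was left, and Pcdhgb4 stood at -0.98 (adjusted p = 0.0277). Under the ERF knockout label 2 members, Pcdhga5 (1.26, adjusted p = 0.0347) and Pcdhgb5 (1.21, adjusted p = 0.0334), differed, beside 4.59% of all genes (2.29% positive). That count ran from 0 to 4 as single libraries were left out: it was 0 without RAS-present 2iL replicate 2, RAS-present FA replicate 2, or RAS-deleted FA replicate 2 or 3, and 4 without RAS-present FA replicate 3. It was 1 without RAS-present 2iL replicate 1 or 3, RAS-deleted 2iL replicate 2, or replicate 1 of either FA group. Pcdhga5 lost its call in 10 of the 12 fits that left out 1 library, all but those without RAS-present 2iL replicate 1 or RAS-present FA replicate 3 (adjusted p from 0.0555 to 0.0882), and with effective length as an offset (0.0549). Pcdhgb5 lost its call without RAS-present 2iL replicate 1 or 2, RAS-deleted 2iL replicate 1, RAS-present FA replicate 2, or RAS-deleted FA replicate 2 or 3, with adjusted p from 0.0544 to 0.0981, and with effective length as an offset (adjusted p = 0.0535).

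The medium effect differed by ERF label in RAS-deleted cells in 10 members, 9 higher under the knockout label and Pcdhgc4 lower, beside 11.3% of all genes (5.59% positive and 5.74% negative). Pcdhgb4 had the largest difference, 2.08 on the log2 scale (SE 0.32, adjusted p = 4.22e-05), and Pcdhgb1 had 1.77 (adjusted p = 0.00117). Pcdhgb6 (1.74, adjusted p = 0.0152) lost its call without replicate 2 of either 2iL group (adjusted p = 0.0521 and 0.0715). Pcdhgc4 (-2.52, adjusted p = 0.0301) lost its call without wild type replicate 1 or 2 in 2iL, wild type replicate 2 or 3 in FA, knockout-labelled replicate 1 or 3 in 2iL, or knockout-labelled replicate 3 in FA, with adjusted p from 0.0619 to 0.0723. The same interaction with RAS present called 0 members, beside 4.27% of all genes, with 4 at an unadjusted p under 0.05 and 0 by DESeq2. It called 1 without reference 2iL replicate 2 or ERF-KO-labelled FA replicate 3. The effect of RAS in FA differed by ERF label in 7 members, all in the second stretch and all positive, beside 13.7% of all genes (6.29% positive). In a fit without the filter on low counts, Pcdhgb8 was also called positive and Pcdhgc4, outside that stretch, negative. Pcdhga8 differed by 2.14 (SE 0.29, adjusted p = 8.04e-06) and Pcdhgb5 by 2.06 (SE 0.37, adjusted p = 0.000186). Pcdhgb7 (1.20, adjusted p = 0.0442) lost its call in 7 of the 11 fits that left out 1 library, with the lowest value, 0.53 (adjusted p = 0.5), without reference FA replicate 1, in a fit of these 4 groups alone (0.0832) and with effective length as an offset (0.0632). Without that reference library Pcdhga9 (0.96, adjusted p = 0.0979) also lost its call and Pcdhga11 lay just under 2-fold. In 2iL that interaction called 0, beside 0.378% of all genes, with 2 members at an unadjusted p under 0.05 and 0 by DESeq2. These terms share groups with one another and with the comparisons above.

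Other genes tied to protocadherins were read from lists. The counts that follow stand beside 24% of all genes called between media in reference cells and 17.3% called for RAS deletion in FA with ERF wild type. Of 14 CTCF and cohesin genes, 2 were called between the media in reference cells, and their signs were opposite: the cohesin subunit Stag2 was higher in FA (148 CPM, n = 2, against 58.8 ± 9.82, n = 3, log2 fold change 1.32, adjusted p = 2.32e-10) and its alternative Stag1 lower (-1.31, adjusted p = 1.26e-11). None of the 14 was called for RAS deletion in FA with ERF wild type. Of 9 DNA methylation genes 4 were higher in FA in reference cells: Dnmt3l (6.43), Dnmt3b (3.09), Dnmt3a (2.50) and Tdg (1.03). Dnmt3b, a de novo DNA methyltransferase known to act on clustered protocadherin promoters, was at 450 ± 18.3 CPM (SD, n = 2) in reference FA libraries, 118 ± 63.7 (n = 3) in RAS-deleted FA libraries and 340 ± 7.07 (n = 3) in RAS-deleted, ERF-KO-labelled FA libraries. It fell by 1.93 with RAS deletion (adjusted p = 8.94e-05) and was the only gene of its list called there.

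Among 14 repressors of the clusters, Lrif1, a partner of Smchd1, was the 1 called in FA in reference cells (1.14, adjusted p = 4.1e-05), and Suv39h1, a histone H3 methyltransferase, the 1 called for RAS deletion in FA (-1.33, adjusted p = 3.45e-09). Non-clustered protocadherins are single genes outside the 3 clusters. Of 12, 6 were tested and 3 rose in FA in reference cells: Pcdh1 went from 1.35 ± 0.324 CPM (n = 3) to 40.2 ± 2.85 CPM (n = 2), Pcdh8 from 0.223 ± 0.113 to 5.53 ± 0.784 CPM, and Pcdh18 from 0.0470 ± 0.0123 to 1.14 ± 0.878 CPM. The 2iL level of Pcdh18 lies under the floor of 0.0966 to 0.202 CPM, and its FA libraries lie far apart, so its calls are weak. For RAS deletion in FA, 4 were called: Pcdh1 fell by 5.08 (adjusted p = 4.32e-11), Pcdh8 by 1.80 and Pcdh18 by 1.48 (adjusted p = 0.0498), and Pcdh19 rose by 1.54. Of 20 signalling partners, among them the kinases Fyn and Ptk2 and the WAVE complex, 0 were called in FA in reference cells, and Psen2, a gamma-secretase subunit, was the 1 called for RAS deletion in FA (-1.07, adjusted p = 0.00012).

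Without the 2-fold minimum more members passed the adjusted p, but the share of all genes that passed was larger than that of the members in 8 of the 10 comparisons given here. Between media these were 9 of 23 in reference cells (49.5% of all genes), 4 in RAS-deleted cells (43%) and 8 in ERF-KO-labelled cells (46.9%). In RAS-deleted, ERF-KO-labelled cells 17 of 23 passed (55.7%), a larger share than of all genes, as was the last count below. For RAS deletion they were 1 in 2iL (5.7%) and 7 in FA (41.3%) with ERF wild type, and 5 in FA under the knockout label (26.4%). For the ERF label they were 1 and 5 in 2iL with RAS present (27.8%) and deleted (39.1%), and 18 in FA with RAS deleted (42.8%).

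Of 39 neighbours of the clusters 18 were tested, and in reference cells 3 were called between media: Dnd1 (1.03) and 3222401L13Rik (1.05) higher and Slc25a2 (-1.56) lower. Slc25a2 and Taf7 lie between the beta and gamma clusters. For RAS deletion in FA, Cd14 (2.61) and Diaph1 (1.02) were called, both higher. The other 430 tested genes of chromosome 18 had medians of 0.06 between media in reference cells and -0.05 for RAS deletion in FA, with 24.9% and 20% called. In RAS-deleted, ERF-KO-labelled cells their median between media was -0.02 with 23.5% called, and for the ERF label in RAS-deleted FA cells 0.04 with 18.8% called.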

How the data were processed

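Total RNA from 23 libraries was depleted of ribosomal RNA and read as strand-specific pairs, per the labels. The submitters' processing notes name bcl2fastq 2.20.0, fastp 0.20.0, Salmon (no version) and the build mm10. The annotation the authors used is not given in the sources used here. Per the file headers, the authors deposited for each library Salmon's estimated counts per gene symbol, its TPM (scaled to length and library) and effective lengths. A deposited table of whole-number counts for all libraries equals the rounded estimated counts and was used here.

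Genes were tested in R 4.3.3 with edgeR 4.0.16: filterByExpr by group, TMM scaling, and a robust quasi-likelihood test in 1 model that gave each of the 8 groups its own mean over the 23 libraries. P-values were adjusted by Benjamini-Hochberg over the 20372 genes tested. Each standard error comes from the F statistic: F is the squared ratio of a log2 fold change to its error. A floor of 3 counts covers counting error only. CPM is relative to the TMM-scaled library. There were 12 comparisons that change 1 factor and 6 interactions. Scripts were tested on simulated data. Each library was treated as 1 replicate. Replicates of a group differed beyond sampling noise in all 22 pairs (chi-square per degree of freedom 3.04 to 44.9). Technical spread between libraries can give this too, so it does not show that they come from separate cultures. No batch is given in the labels.

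The members and the gene lists were chosen with earlier results of these data known. Genes named are, per cluster, the 4 members with the highest mean CPM and the called member with the largest rise and fall in each comparison, the C-type genes, any member called in 6 or more comparisons (none was), and up to 4 called genes per list in the media comparison of reference cells and the RAS comparison in FA. Other members named were chosen after their values were seen. Cluster positions are from GENCODE annotation of GRCm38. One further target gene is not reported here. Alternatives tried were DESeq2 1.42.0 (its size factors and its test), no filter, no 2-fold minimum, an effective length offset, only the groups compared with and without the replicate number as a block, TPM for sums, and leaving out each library.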

Additional observations from a re-analysis of the deposited data

Results flagged for a closer look

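The entries here are members whose response differed between 2 backgrounds by a test of the difference itself, an interaction term of the edgeR model at an adjusted p under 0.05 and at least 2-fold. Values are log2 differences of the 2 effects.

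For FA against 2iL, RAS-deleted minus RAS-present cells with ERF wild type, Pcdhga8 (-1.25), Pcdhgb4 (-1.23) and Pcdhgb6 (-1.50) responded less without RAS. Pcdhgb6 lost its call in 7 of 11 fits that left out 1 library and Pcdhgb4 in 1. Under the ERF knockout label the same difference was positive in Pcdhga5 (1.26) and Pcdhgb5 (1.21), calls lost in 10 and 6 of 12 such fits and with effective length as an offset.

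For FA against 2iL in RAS-deleted cells, ERF-KO-labelled minus wild type, the difference was positive in A-type genes Pcdhga3 (1.76), Pcdhga5 (1.69), Pcdhga8 (1.34), Pcdhga9 (1.71) and Pcdhga10 (1.41). It was also positive in B-type genes Pcdhgb1 (1.77), Pcdhgb4 (2.08), Pcdhgb5 (1.58) and Pcdhgb6 (1.74). Pcdhgc4 was negative (-2.52) and lost its call in 7 of 12 such fits, and Pcdhgb6 in 2.

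For RAS deletion in FA, ERF-KO-labelled minus wild type, Pcdhga8 (2.14), Pcdhgb5 (2.06), Pcdhgb6 (1.90), Pcdhgb4 (1.44), Pcdhga11 (1.27), Pcdhgb7 (1.20) and Pcdhga9 (1.17) were positive. Pcdhgb7 lost its call in 7 of 11 such fits, and Pcdhga9 and Pcdhga11 in 1 each. RAS deletion went with lower levels of Pcdhga8 under wild type (log2 fold change -1.50) and higher levels under the knockout label (0.64).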

How the results depend on the processing

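No call of a member changed sign under any alternative run, and counts stayed within 1.5 times with DESeq2's size factors or its Wald test. Without the 2-fold minimum, calls between media numbered 9 in reference cells, 4 in RAS-deleted cells and 8 in ERF-KO-labelled cells. For RAS deletion they numbered 1 in 2iL and 7 in FA with ERF wild type and 5 in FA under the knockout label. For the ERF label they numbered 1 and 5 in 2iL with RAS present and deleted, and 18 in FA with RAS deleted. Without the filter on low counts, 7 members were called between media in reference cells (1 alpha, 1 beta, 5 gamma, beside 14.4% of genes), 7 in ERF-KO-labelled cells (4 alpha, 3 gamma, beside 11.8%) and 1, Pcdha6, for the ERF label in FA with RAS present (beside 2.3%). With the effective length offset that last count was 1 and the interaction of medium and RAS under the knockout label 0. With only the groups compared, 1 member was called between media in RAS-deleted cells. Replicate numbers did not pair the libraries in any of the 12 comparisons, although in 3 of the 9 with 3 pairs every library correlated best with its own number. With the replicate block, the RAS comparison in FA with ERF wild type had 2 calls instead of 4, and the 14 calls between media in RAS-deleted, ERF-KO-labelled cells were 13. Pcdhgc4 was not called with the block for RAS deletion in FA with ERF wild type (1.36, adjusted p = 0.776), for the ERF label in RAS-deleted FA cells (-2.13, adjusted p = 0.0731) or for medium by ERF with RAS deleted (-2.43, adjusted p = 0.0688). Pcdhgb6 was not called for RAS deletion in FA with ERF wild type (-1.27, adjusted p = 0.053) or for the interaction of RAS and medium in ERF wild type cells (-1.55, adjusted p = 0.109). Pcdhga3 (0.99, media, ERF-KO-labelled cells) and Pcdhga7 (0.97, media, RAS-deleted, ERF-KO-labelled cells) lay under 2-fold, and the block ended no other call of a member. Leaving out 1 library at a time, counts between media ran from 2 to 5 in reference cells, 1 to 3 in RAS-deleted, 1 to 4 in ERF-KO-labelled and 11 to 15 in RAS-deleted, ERF-KO-labelled cells. For RAS deletion they ran from 2 to 5 in FA with ERF wild type and 0 to 1 under the knockout label, and stayed at 0 in 2iL. For the ERF label they ran from 0 to 1 in 2iL in either RAS state and 9 to 11 in FA with RAS deleted. Interactions ran from 1 to 4 and 0 to 4 (medium by RAS, wild type and knockout label), 0 to 1 and 8 to 11 (medium by ERF, RAS present and deleted) and 5 to 8 (RAS by ERF in FA). The cause was not tested in any of these. Summed as TPM in place of CPM, the direction turned in 4 of 12 comparisons for the gamma cluster, 1 of 12 for its A and B types and 5 of 12 for its C types. The gamma sum turned between media in RAS-deleted cells (log2 ratio -0.05 in CPM and 0.21 in TPM), for RAS deletion in FA with ERF wild type (-0.13 and 0.07) and in 2iL under the knockout label (0.04 and -0.10), and for the ERF label in FA with RAS present (0.15 and -0.01). The ratio of mean TPM, an alternative chosen after seeing the data, turned none of the 37 calls of single members in the 12 comparisons. Pcdhgc3, which was not called, turned between media in RAS-deleted, ERF-KO-labelled cells. Depth limits the alpha and beta genes, of which 10 of 13 and 20 of 22 stayed under 10 counts in every library.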
